A study of Homo sapiens with 12 samples.

Results

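ABC transporters are membrane proteins that use ATP to move substrates across a membrane, and 46 of the 43236 gene symbols counted carried the name of a human ABC gene, that is the letters ABC, a subfamily letter from A to G and a number. The counts came from MNNG/HOS, a human osteosarcoma cell line that is a chemically transformed derivative of HOS. Cells received either DMSO, the solvent, or 300 nM NXP800, an oral small molecule, for 6 h or for 24 h, and each of the 4 groups had 3 libraries. All 12 libraries therefore came from 1 cell line, and nothing in the labels says that the replicates were separate cultures, so the p-values measure only the spread between these libraries. The comparison asked how the transcripts of lipid carriers, of drug and organic anion efflux pumps and of mitochondrial or peroxisomal carriers responded to NXP800 at each time.

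Members of the family differ mainly in what they carry. ABCA1 and ABCG1 hand cholesterol and phospholipid to lipoproteins and are classic targets of the liver X receptors, nuclear receptors that sense oxysterols. ABCB1, ABCC1 and ABCG2 are the best known pumps behind multidrug resistance, which is why they are followed in tumours treated with chemotherapy. ABCD2 and ABCD3 bring long-chain acyl-CoA into peroxisomes, ABCB6, ABCB8 and ABCB10 belong to mitochondria and serve iron, heme and iron-sulphur metabolism, and the E and F proteins have no membrane part and act on ribosomes.

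Libraries held between 30810614 and 31947656 counts on genes. Reads on no annotated gene made up 6.66 to 8.14% of read pairs in the 6 h libraries and 2.73 to 3.67% in the 24 h libraries, so time and library set cannot be told apart, while each comparison of NXP800 with DMSO stayed within a time. The labelled cell type was checked on 9 osteoblast markers: RUNX2, COL1A1, SPARC and SPP1 were above 1 CPM in all 12 libraries, and SP7, ALPL, COL1A2, IBSP and BGLAP were below 0.379 CPM. Their summed level was 765 to 953 CPM in DMSO and 518 to 612 CPM with NXP800 at 6 h, and 898 to 1083 CPM against 398 to 467 CPM at 24 h. Of 5 epithelial markers KRT8, KRT18 and EPCAM were above 1 CPM in every library and CDH1 and KRT5 were near 0, with sums of 1262 to 1520 and 1173 to 1333 CPM at 6 h and of 1735 to 1783 and 1083 to 1360 CPM at 24 h, DMSO first. Of 3 mesenchymal markers VIM and FN1 were above 1 CPM in all 12 libraries and THY1 in 9. Their sums were 4534 to 4707 and 4205 to 4265 CPM at 6 h, DMSO first. At 24 h these sums were 5154 to 6167 and 3492 to 4434 CPM. Blood cell, endothelial and hepatocyte marker lists summed to at most 3.90 CPM. The part of these shifts in the results for ABC genes was not tested, and in such bulk RNA fewer cells of a type and less RNA per cell cannot be told apart.

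Of the 46 ABC genes 32 had enough counts to be tested. The 14 others were ABCA6, ABCA8, ABCA9, ABCA12, ABCB5, ABCB11, ABCC8, ABCC9, ABCC11, ABCC13, ABCD2, ABCG4, ABCG5 and ABCG8, which held between 0 and 16 counts a library. Both regulators of ATP-sensitive potassium channels, ABCC8 and ABCC9, were among them, as was ABCC13, a pseudogene that was at 0 throughout. ABCD2, which carries very-long-chain fatty acyl-CoA into peroxisomes, had 3 counts in each DMSO library at 6 h and 2, 0 and 2 at 24 h, and 0 in all 6 NXP800 libraries, too few for a comparison. Levels between genes were compared as CPM per kb of exon, where CPM is the count per 1e6 of the TMM-scaled library total. In DMSO the ribosome-associated ABCF1 and ABCE1 led with 54.1 and 42.4 CPM per kb over the 6 libraries, followed by the efflux pump ABCC1 with 13.5, ABCF3 with 12.8 and the peroxisomal ABCD3 with 10.3. Above 1 CPM per kb stood 6 of 7 mitochondrial and peroxisomal members and 7 of 13 efflux members but 3 of 17 lipid members, namely ABCA2, ABCG1 and ABCA3.

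**Figure D1:**
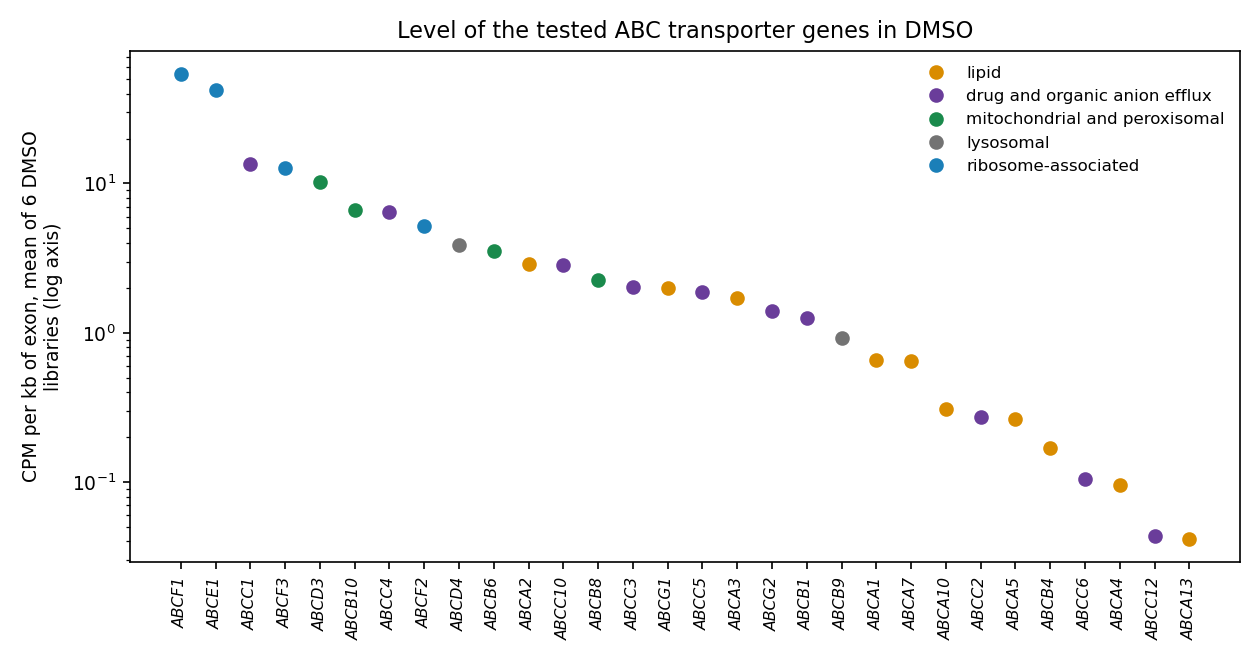
Mean level of 30 of the 32 tested ABC genes in the 6 DMSO libraries, in CPM per kb of exon on a log axis, ordered from high to low and coloured by functional group. The ribosome-associated ABCF1 and ABCE1 stand at the top with 54.1 and 42.4 CPM per kb, and the lipid members other than ABCA2, ABCG1 and ABCA3 lie below 1 CPM per kb.

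At 6 h 5 of the 32 tested members were called higher with NXP800 and 11 lower, with edgeR's quasi-likelihood F-test and p-values adjusted by the Benjamini-Hochberg method across all 15979 tested genes. These are 15.6% and 34.4% of the tested members, where 25.0% of all tested genes were called higher and 27.8% lower. At 24 h 6 members (18.8%) were called higher and 17 (53.1%) lower, against 27.5% and 28.6% of all tested genes. The median log2 fold change of the tested members was -0.16 at 6 h and -0.31 at 24 h, while that of all tested genes was -0.05 and -0.0033. Each time has its own DMSO libraries. The filter on low counts keeps a gene that is high in 1 group alone, so these shares describe the tested members and test nothing. With scaling by library size only, which shifted the median of all genes at 24 h to 0.086, 9 members were called higher and 13 lower at 24 h. With the replicate number as a block the calls were 6 and 16 at 6 h and 8 and 18 at 24 h.

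By functional group the calls split as follows, and no group was tested as a set. The shares of all tested genes to set beside them were 25.0% higher and 27.8% lower at 6 h. At 24 h those shares were 27.5% and 28.6%. All 6 tested mitochondrial and peroxisomal members were called lower at 24 h and 4 of them at 6 h, and none was called higher. Of the 10 tested lipid members 4 were called higher and 2 lower at each time. Of the 10 tested efflux members 1 was called higher and 2 lower at 6 h, and 2 higher and 5 lower at 24 h. Of the 2 lysosomal members 1 was called lower at 6 h and both at 24 h, and of the 4 ribosome-associated ones 2 were called lower at both times. The median log2 fold changes at 6 h and 24 h were 0.02 and 0.18 for lipid members, -0.19 and -0.41 for efflux members and -0.54 and -0.57 for mitochondrial and peroxisomal members. No member was called in opposite directions at the 2 times: 4 were called higher and 10 lower at both. With the replicate block ABCC3 and ABCC4 were called lower at 6 h and higher at 24 h, and ABCD4 higher at 6 h and lower at 24 h.

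**Figure D2:**
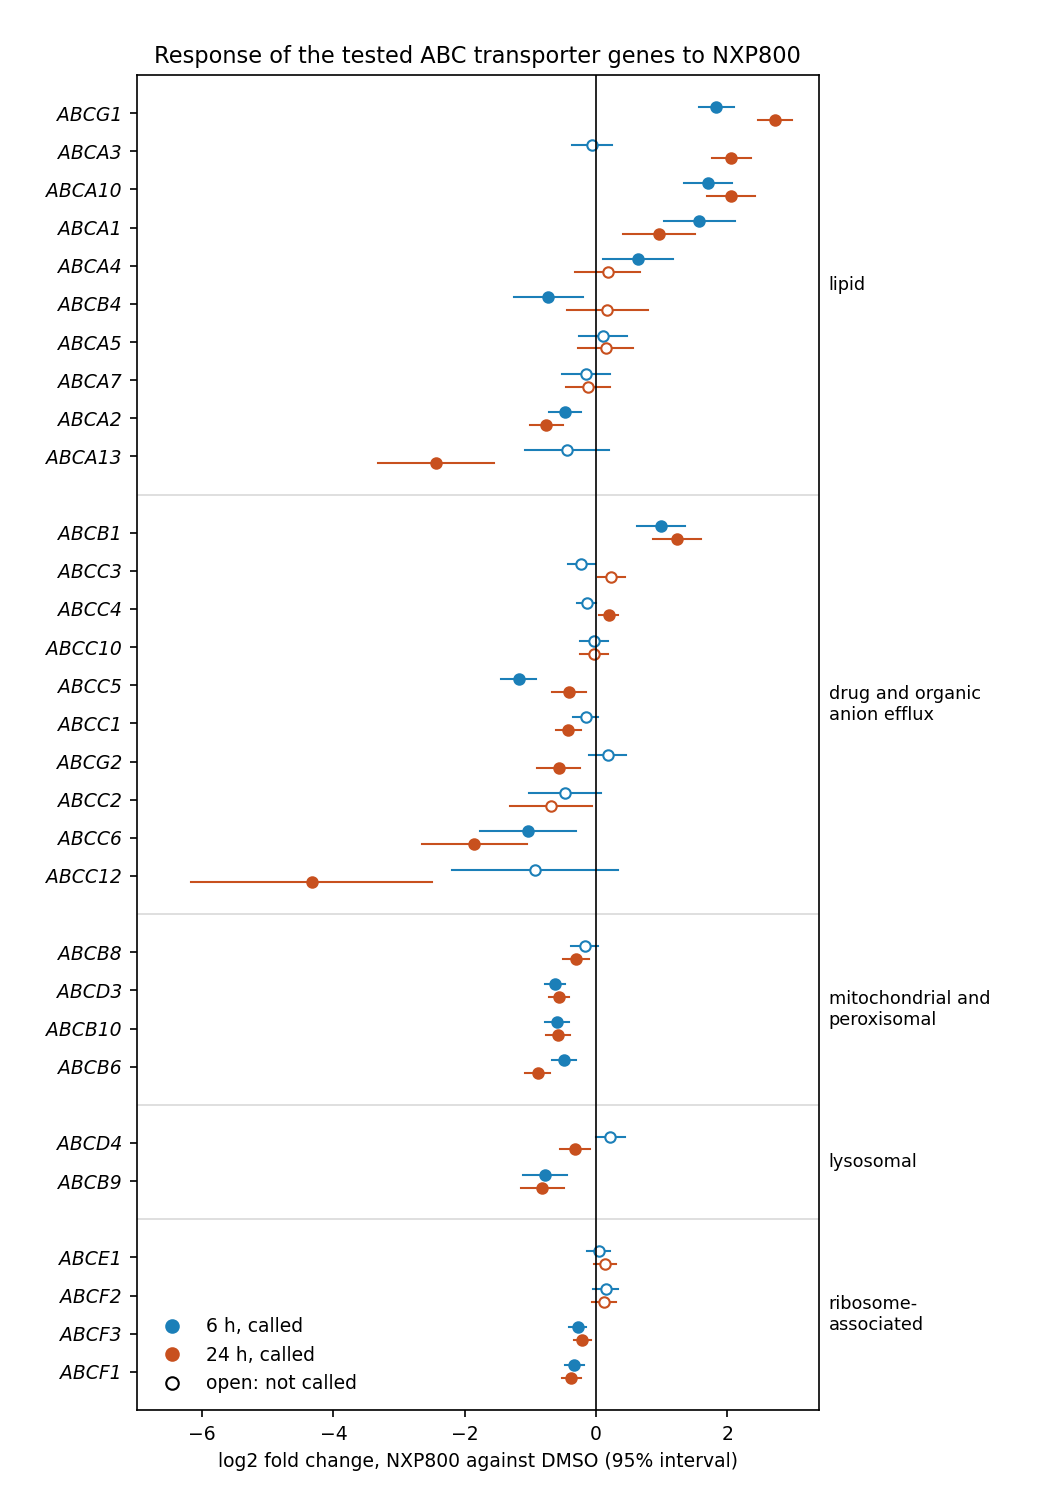
Log2 fold change of NXP800 against DMSO at 6 h (blue) and 24 h (orange) for 30 of the 32 tested members, with bars for the 95% interval of the fit, filled points for calls at an adjusted p below 0.05 and open points for the rest. Points of the lipid group run from ABCG1 at 2.73 to ABCA13 at -2.43 at 24 h, whereas the 4 mitochondrial and peroxisomal members drawn lie left of 0 at both times.

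Reference promoters are shown for ABCA1, a lipid member called higher at both times, ABCA3, a lipid member called higher at 24 h only, and ABCB6, a mitochondrial member that fell, because each holds a match to at least 1 of the 4 motifs that were searched. They are the 250 bases before the RefSeq start site in GRCh38.p14, at chr9:104928156-104928405, chr16:2340729-2340978 and chr2:219218959-219219208, all read 5′ to 3′ on the minus strand, and capitals mark the matches.
ABCA1: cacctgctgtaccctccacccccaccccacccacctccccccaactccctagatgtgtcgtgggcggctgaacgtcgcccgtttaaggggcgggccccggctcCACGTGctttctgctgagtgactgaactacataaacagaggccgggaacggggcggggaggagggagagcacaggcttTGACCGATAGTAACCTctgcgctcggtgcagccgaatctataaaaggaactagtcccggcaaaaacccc
ABCA3: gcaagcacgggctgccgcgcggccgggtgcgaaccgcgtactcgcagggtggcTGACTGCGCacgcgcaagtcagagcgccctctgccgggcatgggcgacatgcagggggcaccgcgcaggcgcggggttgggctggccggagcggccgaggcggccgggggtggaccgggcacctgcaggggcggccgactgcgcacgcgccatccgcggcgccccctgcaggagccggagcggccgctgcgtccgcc
ABCB6: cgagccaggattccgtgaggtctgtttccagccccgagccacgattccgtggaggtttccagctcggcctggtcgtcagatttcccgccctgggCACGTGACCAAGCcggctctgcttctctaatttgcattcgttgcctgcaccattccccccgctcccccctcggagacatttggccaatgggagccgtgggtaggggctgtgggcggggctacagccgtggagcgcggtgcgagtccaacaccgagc
In ABCA1 the capitals are an E-box (CACGTG), at positions -147 to -142 from the start site, and a direct repeat of the hexamer AGGTCA with a spacer of 4 bases, at -69 to -54, matched on the opposite strand with 2 of 12 bases changed. This repeat is the form of element that liver X receptors are known to bind, and it was added after the values were seen. In ABCA3 they are an antioxidant response element (TGACNNNGC) at -197 to -189, and in ABCB6 an E-box and an antioxidant response element that overlap, at -156 to -151 and -152 to -144.

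Windows of 300 bases, 250 before and 50 after a start site, were available for 53 start sites of 35 members, and tested members such as ABCA4, ABCB4, ABCC1, ABCC3 and ABCG1 had none. Both strands were searched. The hexamer repeat, with at most 2 of its 12 bases changed, was in 4 of the 53 windows (7.55%, in ABCA1, ABCC6 and ABCD2) and in 2.34% of all 35116 windows. CACGTG was in 9 (17.0%) against 7.26%, TGACNNNGC in 12 (22.6%) against 13.3%, and TGATGNAA, the core of the element bound by C/EBP and ATF factors, in 3 (5.66%, in ABCA13, ABCB11 and ABCG2) against 3.62%. By response, CACGTG was in 1 of 7 windows of members called higher at 24 h and in 5 of 24 of those called lower, and TGACNNNGC in 2 of 7 and 6 of 24. TGATGNAA was in 0 of 7 and 2 of 24. The hexamer repeat was in 1 of 7 (ABCA1) and 2 of 24, which hold 1 site of ABCC6 in 2 overlapping windows. Windows of 1 gene can overlap, and a match of letters is no evidence of binding.

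Among the lipid carriers ABCG1 (chr21:42199689-42297244, plus strand, RefSeq position on GRCh38.p14, as for the positions that follow), which exports cholesterol to high-density lipoprotein, changed most. At 6 h ABCG1 was at 9.60, 10.6 and 7.26 CPM in DMSO and 30.6, 37.6 and 29.8 CPM with NXP800, in the order of replicates 1, 2 and 3 as in all lists that follow. At 24 h ABCG1 was at 14.7, 16.5 and 14.5 CPM in DMSO and 98.3, 113 and 91.7 CPM with NXP800. The groups lay apart at both times, and the NXP800 libraries of 24 h exceeded those of 6 h. ABCG1 rose 3.57-fold at 6 h (log2 fold change 1.84, SE 0.13, adjusted p = 9.8e-09) and 6.63-fold at 24 h (2.73, SE 0.12, adjusted p = 9.13e-11). The response at 24 h was larger by 0.89 on the log2 scale (SE 0.17, adjusted p = 0.00148 by edgeR). Per kb of exon its level went from 2.49 to 16.5 CPM at 24 h, which in NXP800 libraries was above that of ABCC1 with 12.1.

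ABCA1, which loads cholesterol and phospholipid onto apolipoprotein A-I (chr9:104781006-104928155, minus strand), was at 6.40, 7.47 and 6.71 CPM in DMSO and 17.9, 26.4 and 17.2 CPM with NXP800 at 6 h. At 24 h the values were 6.29, 11.03 and 7.11 CPM in DMSO and 15.8, 22.2 and 9.44 CPM with NXP800. At 6 h the groups lay apart, and at 24 h NXP800 replicate 3 fell below DMSO replicate 2. The gene rose 2.99-fold at 6 h (log2 fold change 1.58, SE 0.26, adjusted p = 8.35e-05) and 1.94-fold at 24 h (0.96, SE 0.26, adjusted p = 0.00462). The difference of the responses was -0.62 log2 units (95% interval -1.39 to 0.15, adjusted p = 0.231 by edgeR), and with the replicate block that difference was called (adjusted p = 0.00907), as it was without a low-count filter (-0.60, adjusted p = 0.00311) and without NXP800 24 h replicate 2 (-0.95, adjusted p = 0.0471).

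ABCA10, of a cluster of A subfamily genes on chromosome 17, was at 2.22, 2.71 and 2.86 CPM in DMSO and 6.39, 9.15 and 10.04 CPM with NXP800 at 6 h. At 24 h ABCA10 was at 2.51, 2.69 and 2.47 CPM in DMSO and 10.2, 12.3 and 9.41 CPM with NXP800. Every NXP800 library was above every DMSO library of its time. The gene rose 3.28-fold (1.71, SE 0.17, adjusted p = 5.41e-07) and 4.15-fold (2.05, SE 0.17, adjusted p = 5.62e-08), and the difference of the responses was 0.34 log2 units (95% interval -0.18 to 0.86, adjusted p = 0.337 by edgeR). Its neighbour ABCA5, whose end overlaps it on the same strand and shares 3.78% of the exon bases of ABCA10, was not called, with log2 fold changes of 0.11 (95% interval -0.26 to 0.48) and 0.15 (-0.28 to 0.57). The other 3 genes of the cluster, ABCA6, ABCA8 and ABCA9, had at most 3 counts in any library.

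ABCA3, which fills the lamellar bodies of lung cells with surfactant phospholipid (chr16:2275881-2340728, minus strand), was called at 24 h and not at 6 h. At 6 h it was at 12.6, 12.5 and 16.5 CPM in DMSO and 11.7, 13.2 and 14.9 CPM with NXP800. At 24 h ABCA3 was at 12.6, 10.7 and 14.9 CPM in DMSO and 46.4, 51.4 and 62.2 CPM with NXP800. The 6 h groups overlapped, and at 24 h every NXP800 library was far above the DMSO libraries. ABCA3 rose 4.19-fold at 24 h (log2 fold change 2.07, SE 0.14, adjusted p = 5.42e-09) against -0.06 at 6 h (95% interval -0.37 to 0.24, adjusted p = 0.741). The difference of 2.13 log2 units (SE 0.20, adjusted p = 2.74e-06 by edgeR) was the largest positive one among the 32 members.

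ABCA2, a carrier of endosomes and lysosomes, fell by 0.47 log2 units at 6 h (SE 0.12, adjusted p = 0.00294) and by 0.75 at 24 h (SE 0.12, adjusted p = 4.42e-05 by edgeR). Under the replicate block its responses also differed (-0.28, adjusted p = 0.0473). ABCA13 had few counts, 63 over the DMSO libraries of 24 h and 12 over the NXP800 ones, a ratio of 5.53 with an exact 95% counting interval of 2.96 to 11.3. It fell by 2.43 log2 units at 24 h (SE 0.42, adjusted p = 0.000116), and at 6 h it stood at -0.44 (adjusted p = 0.233). ABCA7, a carrier of phospholipid related to ABCA1, was not called, with log2 fold changes of -0.15 (95% interval -0.51 to 0.22) and -0.12 (-0.46 to 0.21).

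A call at 6 h only was made for ABCA4, the retinoid carrier of photoreceptors, with log2 fold changes of 0.64 (SE 0.25, adjusted p = 0.0429), and for ABCB4, the phosphatidylcholine carrier of bile canaliculi, with -0.72 (SE 0.25, adjusted p = 0.0224 by edgeR). Both were low, with group means of at most 1.85 CPM. The call of ABCA4 was lost without DMSO 6 h replicate 1 or 3 (adjusted p = 0.0817 and 0.167), NXP800 6 h replicate 2 (0.219), DMSO 24 h replicate 1 or 2 (0.0521 and 0.0510) or NXP800 24 h replicate 1 (0.0501), without a low-count filter (0.0875) and with only the 6 libraries of that time (0.0561). That of ABCB4 was lost without DMSO 6 h replicate 1 or 2 (0.112 and 0.0643) or NXP800 6 h replicate 1 or 2 (0.0843 and 0.0531), and its responses differed without DMSO 6 h replicate 3 or NXP800 24 h replicate 3 (1.09 and 1.12, adjusted p = 0.0458 and 0.0410). With all libraries that difference was 0.90 log2 units (adjusted p = 0.0990).

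**Figure D3:**
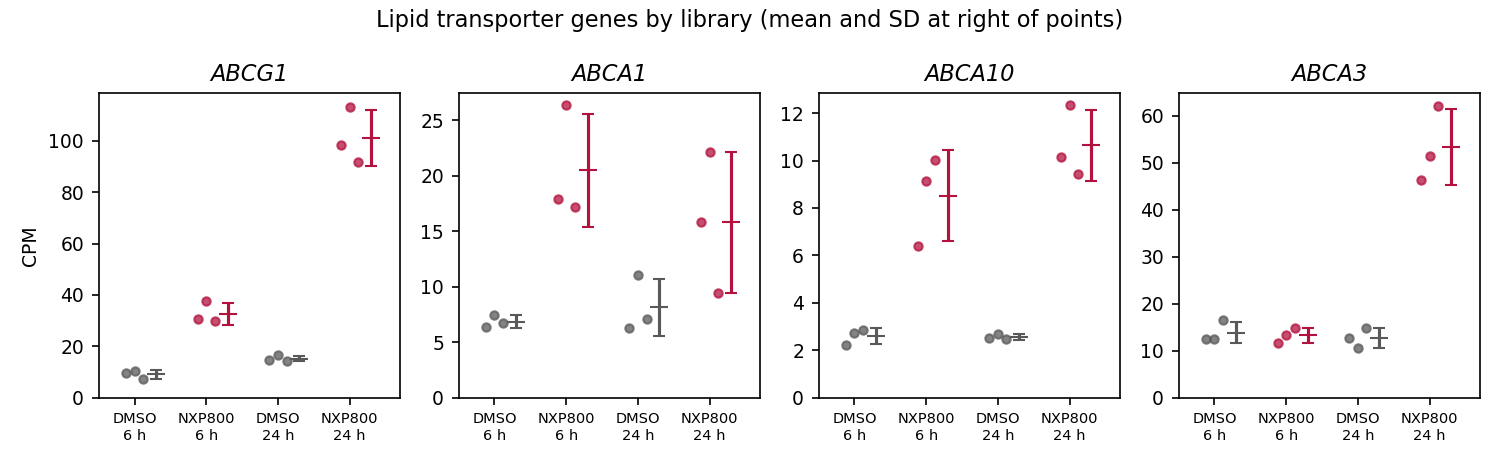
CPM of ABCG1, ABCA1, ABCA10 and ABCA3 in each of the 12 libraries by group, DMSO in grey and NXP800 in red, with the mean and SD of 3 libraries beside the points. NXP800 libraries lie above all DMSO libraries of their time for ABCG1 and ABCA10, for ABCA1 at 6 h and for ABCA3 at 24 h, and the axis of each panel starts at 0.

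Of 17 genes listed for sterol sensing around these carriers 16 were tested, of which 4 were called higher and 8 lower at 6 h, and 3 higher and 7 lower at 24 h. Over all tested genes 25.0% were called higher and 27.8% lower at 6 h, and 27.5% and 28.6% at 24 h. NR1H3, the liver X receptor alpha, fell by 0.84 log2 units and 1.22 (adjusted p = 0.0007 and 2.87e-05), and without NXP800 24 h replicate 3 the difference between these was called (-0.64, adjusted p = 0.0474). NR1H2, the liver X receptor beta, which was picked after its values were seen, went the other way and rose by 0.41 log2 units and 0.33 (adjusted p = 0.000254 and 0.00153). The dimer partner RXRA fell by 1.44 log2 units and 0.69 (adjusted p = 6.42e-08 and 9.4e-05). RXRB, another dimer partner picked after its values were seen, rose by 0.48 log2 units at 6 h (adjusted p = 6.54e-05) and stood at 0.07 at 24 h (adjusted p = 0.469 by edgeR). NPC1, which moves cholesterol out of lysosomes, rose by 1.21 log2 units and 0.93 (adjusted p = 2.74e-07 and 3.62e-06 by edgeR), and with the replicate block its responses differed (-0.28, adjusted p = 0.0101). LPCAT3, a liver X receptor target in phospholipid remodelling that was picked after its values were seen, was lower at 6 h by 0.41 log2 units (adjusted p = 0.0160) and at 24 h by 0.66 (adjusted p = 0.000448), the opposite of ABCA1 and ABCG1. Its 6 h call was lost without DMSO 6 h replicate 2 or NXP800 6 h replicate 3 (adjusted p = 0.0724 and 0.0838). MYLIP and APOE, of the same list, were also added. MYLIP fell by 0.39 log2 units and 0.25 (adjusted p = 0.00355 and 0.0402 by edgeR). APOE was called at neither time, with -0.09 and -0.25 (adjusted p = 0.562 and 0.205 by edgeR).

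ABCB1, the P-glycoprotein that pumps many anticancer drugs out of cells, had the largest rise of the efflux genes (chr7:87503017-87713295, minus strand). At 6 h it was at 9.06, 8.83 and 6.84 CPM in DMSO and 17.4, 17.7 and 14.2 CPM with NXP800. At 24 h ABCB1 was at 6.02, 7.43 and 9.96 CPM in DMSO and 14.6, 19.1 and 21.4 CPM with NXP800. The groups lay apart at both times. ABCB1 rose 2.00-fold at 6 h (1.00, SE 0.17, adjusted p = 0.00014) and 2.35-fold at 24 h (1.23, SE 0.17, adjusted p = 1.59e-05), and the difference of the responses was 0.24 log2 units (95% interval -0.28 to 0.75, adjusted p = 0.521 by edgeR). ABCB4 lies 27.0 kb from it on the same strand of chromosome 7 and was lower at 6 h, as given above.

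ABCC5, or MRP5, an exporter of cyclic nucleotides, fell early and then less. At 6 h it was at 18.2, 19.8 and 21.8 CPM in DMSO and 7.71, 7.68 and 11.02 CPM with NXP800. At 24 h ABCC5 was at 21.6, 24.9 and 22.2 CPM in DMSO and 15.9, 18.9 and 16.9 CPM with NXP800. NXP800 libraries were below all DMSO libraries at both times, and the gap was wider at 6 h. The gene fell by 1.18 log2 units at 6 h (SE 0.13, adjusted p = 1.33e-06) and by 0.41 at 24 h (SE 0.12, adjusted p = 0.00965), a difference of 0.77 (SE 0.18, adjusted p = 0.00465 by edgeR). With library size only the 24 h call was lost (-0.32, adjusted p = 0.0566).

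ABCG2, the breast cancer resistance protein, was at 10.9, 10.3 and 9.24 CPM in DMSO and 12.2, 11.9 and 10.6 CPM with NXP800 at 6 h. At 24 h the values were 6.89, 4.44 and 5.29 CPM in DMSO and 4.13, 3.42 and 3.67 CPM with NXP800. The 6 h groups overlapped and at 24 h the NXP800 libraries lay below the DMSO ones. ABCG2 fell by 0.57 log2 units at 24 h (SE 0.15, adjusted p = 0.00467), whereas at 6 h its log2 fold change was 0.18 (95% interval -0.10 to 0.47). The responses differed by -0.75 log2 units (SE 0.20, adjusted p = 0.0126 by edgeR).

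ABCC1, or MRP1, an exporter of glutathione conjugates, was the efflux gene with the highest level. At 6 h it was at 98.7, 92.3 and 90.9 CPM in DMSO and 87.8, 82.4 and 83.1 CPM with NXP800. At 24 h ABCC1 was at 119.7, 159.9 and 144 CPM in DMSO and 96.8, 115 and 106 CPM with NXP800. The groups lay apart at both times, by little at 6 h. ABCC1 fell by 0.42 log2 units at 24 h (SE 0.09, adjusted p = 0.000783), and at 6 h it stood at -0.15 (adjusted p = 0.160 by edgeR). With the replicate block the 6 h change was called (adjusted p = 0.0106) and so was the difference of the responses (-0.26, adjusted p = 0.00597), which was -0.26 with adjusted p = 0.139 unblocked and -0.37 with 0.0181 without DMSO 24 h replicate 1.

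For ABCC4, or MRP4, which exports cyclic AMP and prostaglandins, and ABCC3, or MRP3, which exports glucuronides, the responses at the 2 times pointed apart. ABCC4 was at -0.14 at 6 h (adjusted p = 0.0984) but rose by 0.19 log2 units at 24 h (adjusted p = 0.0229), with a difference of 0.33 (adjusted p = 0.0184). Its 24 h call was lost without DMSO 24 h replicate 2 or NXP800 24 h replicate 3 (adjusted p = 0.110 and 0.105), and the difference without DMSO 24 h replicate 2 (0.0523). ABCC3 was called at neither time, with log2 fold changes of -0.22 and 0.23 (adjusted p = 0.0691 and 0.0512), but the difference of 0.45 was (adjusted p = 0.0238 by edgeR). Without DMSO 24 h replicate 3, DMSO 6 h replicate 1, NXP800 24 h replicate 2 or NXP800 6 h replicate 2 that difference had adjusted p = 0.0581, 0.0621, 0.0568 and 0.0644. With the replicate block ABCC4 was called lower at 6 h (adjusted p = 0.0377), and ABCC3 lower at 6 h and higher at 24 h (0.0149 and 0.00944). Its 24 h change was called in 9 of 20 alternatives, among them DESeq2 size factors (0.0418), library size only (0.0184), no low-count filter (0.0441) and at least 10 counts in every library (0.0472).

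The remaining efflux members were called lower or were not called. ABCC6 had 67 counts over the DMSO libraries and 33 over the NXP800 libraries at 6 h, and 66 and 19 at 24 h. It fell by 1.04 log2 units (adjusted p = 0.0182) and 1.85 (adjusted p = 0.000597), with the 6 h call lost without DMSO 6 h replicate 2 or NXP800 6 h replicate 2 (0.0716 and 0.0722). Its near-identical pseudogene ABCC6P2 was lower too, by 1.28 log2 units and 2.46 (adjusted p = 0.0179 and 0.000864), so reads of the pair may be split uncertainly between them. ABCC12 had 11, 25 and 9 counts in DMSO and 1, 0 and 1 with NXP800 at 24 h, 45 against 2 in sum, a ratio of 23.7 with an exact 95% counting interval of 6.19 to 202, and was called lower at 24 h (adjusted p = 0.000467 by edgeR). At 6 h ABCC12 had 34 counts in DMSO and 18 with NXP800 and was not called (adjusted p = 0.205). ABCC2, or MRP2, had a log2 fold change of -0.47 and -0.68 (adjusted p = 0.139 and 0.0605) and was called lower at both times with the block (0.0112 and 0.00487), and at 24 h also without a low-count filter (0.0187). ABCC10 had a log2 fold change of -0.03 (95% interval -0.25 to 0.18) and -0.03 (-0.24 to 0.18).

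Of 18 genes listed as regulators and conjugating enzymes that work with efflux pumps 16 were tested, of which 7 were called higher and 8 lower at 6 h, and 6 each way at 24 h. The shares of all tested genes called higher and lower were 25.0% and 27.8% at 6 h, and 27.5% and 28.6% at 24 h. AHR, the aryl hydrocarbon receptor, rose by 1.15 log2 units at 6 h (adjusted p = 6.14e-08) and stood at 0.09 at 24 h (adjusted p = 0.470). NFE2L2, which encodes the antioxidant regulator NRF2, rose by 0.93 log2 units and 0.59 (adjusted p = 6.63e-08 and 7.33e-06 by edgeR). GSTM1, a glutathione transferase, fell by 0.56 log2 units and 1.14 (adjusted p = 0.000139 and 9.14e-08).

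In peroxisomes ABCD3, or PMP70, which carries branched-chain and dicarboxylic acyl-CoA, was at 83.9, 89.6 and 77.5 CPM in DMSO and 52.6, 55.9 and 54.2 CPM with NXP800 at 6 h. At 24 h the values were 71.6, 72.5 and 77.3 CPM in DMSO and 48.1, 46.7 and 54.8 CPM with NXP800. The groups lay apart at both times. ABCD3 fell by 0.63 log2 units (SE 0.07, adjusted p = 2.52e-06) and 0.57 (SE 0.07, adjusted p = 6.3e-06), and the difference of 0.06 had a 95% interval of -0.16 to 0.28 (adjusted p = 0.716 by edgeR). Of 20 listed genes of peroxisomal fatty acid oxidation and import, all tested, 3 were called higher and 11 lower at 6 h, and 2 higher and 8 lower at 24 h. Over all tested genes the shares called higher and lower were 25.0% and 27.8% at 6 h, and 27.5% and 28.6% at 24 h. CAT, peroxisomal catalase, fell by 0.62 log2 units and 1.51 (adjusted p = 0.000193 and 1.95e-08). SCP2, a thiolase and sterol carrier, fell by 0.58 log2 units and 1.33 (adjusted p = 5.12e-05 and 6.57e-09), and CROT, carnitine octanoyltransferase, by 1.26 and 1.19 (adjusted p = 3.03e-06 and 7.61e-06).

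ABCB6, a porphyrin carrier of the outer mitochondrial membrane (chr2:219209772-219218958, minus strand), was at 19.3, 17.4 and 18.6 CPM in DMSO and 13.6, 12.2 and 13.4 CPM with NXP800 at 6 h. At 24 h ABCB6 was at 17.4, 20.04 and 17.8 CPM in DMSO and 9.67, 9.88 and 10.3 CPM with NXP800. The groups lay apart at both times and the NXP800 libraries were lowest at 24 h. ABCB6 fell by 0.49 log2 units (SE 0.09, adjusted p = 0.000185) and by 0.89 (SE 0.09, adjusted p = 4.39e-07). The responses differed by -0.40 log2 units (adjusted p = 0.0281 by edgeR), a call that was lost without DMSO 24 h replicate 2, DMSO 6 h replicate 2, NXP800 24 h replicate 1, NXP800 6 h replicate 1 or NXP800 6 h replicate 3 (adjusted p = 0.0757, 0.0698, 0.0547, 0.0708 and 0.0589), with library size only (0.0829) and without a low-count filter (0.0896). In GENCODE 54.6% of its exon bases also belong to a readthrough gene, and whether the annotation used for counting holds that gene was not tested.

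ABCB10, a carrier of the inner mitochondrial membrane that supports heme synthesis, was at 28.1, 32.5 and 27.7 CPM in DMSO and 17.5, 20.6 and 20.4 CPM with NXP800 at 6 h. At 24 h ABCB10 was at 27.6, 26.7 and 28.1 CPM in DMSO and 18.7, 18.2 and 18.2 CPM with NXP800. All NXP800 libraries were below the DMSO libraries. ABCB10 fell by 0.59 log2 units (SE 0.08, adjusted p = 2.01e-05) and 0.58 (SE 0.08, adjusted p = 2.39e-05), with a difference of 0.01 (95% interval -0.24 to 0.27, adjusted p = 0.951 by edgeR).

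ABCB8, another carrier of the inner mitochondrial membrane, was called at 24 h and not at 6 h. ABCB8 fell by 0.30 log2 units at 24 h (adjusted p = 0.0134) and stood at -0.17 at 6 h (adjusted p = 0.155, and 0.0381 with the replicate block). Its 24 h call was lost without DMSO 24 h replicate 3 or NXP800 24 h replicate 2 (0.0683 and 0.0897) and with library size only (0.0670).

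**Figure D4:**
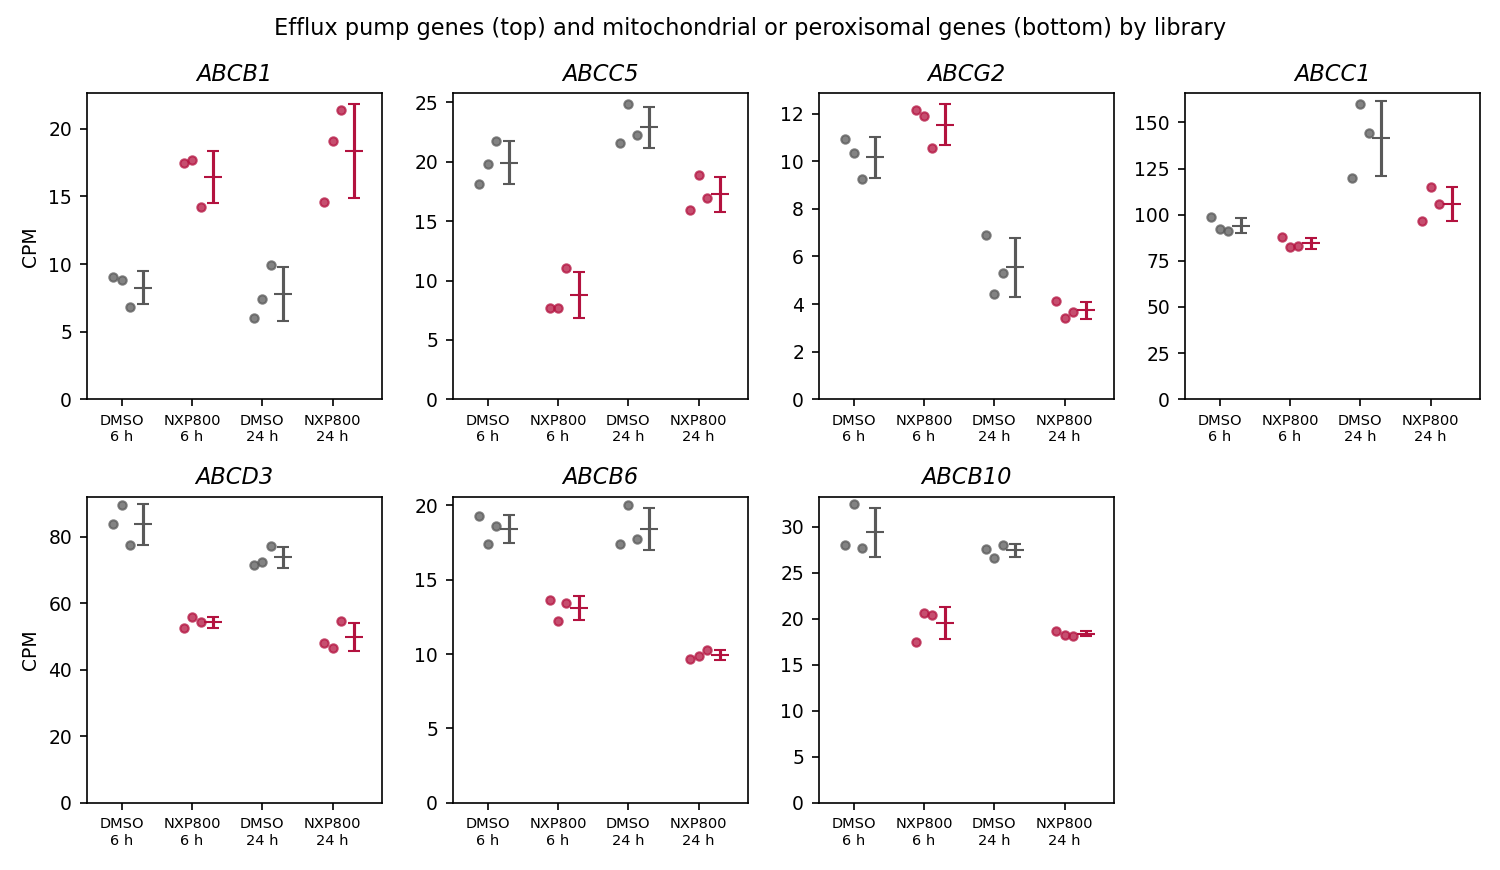
CPM in each of the 12 libraries by group for the efflux genes ABCB1, ABCC5, ABCG2 and ABCC1 (top) and the peroxisomal or mitochondrial genes ABCD3, ABCB6 and ABCB10 (bottom), DMSO in grey and NXP800 in red, with the mean and SD of 3 libraries beside the points and axes that start at 0. The bottom panels show NXP800 below DMSO at both times, while in the top row ABCB1 is above DMSO and ABCG2 is below it at 24 h only.

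All 22 listed genes of mitochondrial iron-sulphur and heme synthesis were tested, with 1 called higher and 11 lower at 6 h, and 2 higher and 10 lower at 24 h. Among all tested genes 25.0% were called higher and 27.8% lower at 6 h, and 27.5% and 28.6% at 24 h. CPOX, which makes protoporphyrinogen, fell by 1.32 log2 units and 0.83 (adjusted p = 7.2e-09 and 6.78e-07). NFS1, the cysteine desulphurase, fell by 1.08 log2 units and 0.63 (adjusted p = 3.18e-08 and 5.74e-06 by edgeR). ALAD, which makes porphobilinogen, fell by 0.90 log2 units and 0.85 (adjusted p = 3.71e-06 and 3.95e-06).

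In lysosomes ABCB9 carries peptides and ABCD4 releases cobalamin. ABCB9 was at 8.02, 10.9 and 10.6 CPM in DMSO and 4.15, 7.10 and 5.99 CPM with NXP800 at 6 h, and at 24 h at 13.9, 15.5 and 14.1 CPM in DMSO and 7.79, 8.56 and 8.39 CPM with NXP800. The groups lay apart at both times, and it fell by 0.78 log2 units and 0.81 (adjusted p = 0.000656 and 0.000269). Genes on the other strand overlap 24.6% of its exon bases, and the strand setting of the counting is not given in the sources used here. ABCD4 was at 32.9, 33.01 and 33.99 CPM in DMSO and 40.8, 35.9 and 39.5 CPM with NXP800 at 6 h, and at 24 h at 29.7, 40.9 and 37.01 CPM in DMSO and 25.4, 32.1 and 28.8 CPM with NXP800. The NXP800 libraries were above DMSO at 6 h, and the 24 h groups overlapped. ABCD4 stood at 0.22 at 6 h (adjusted p = 0.0906) and fell by 0.32 log2 units at 24 h (adjusted p = 0.0169), a difference of -0.54 (adjusted p = 0.0143 by edgeR). With the replicate block it was called higher at 6 h (0.00340), as it was with only the 6 libraries of that time (0.00636), without a low-count filter (0.0481) or without DMSO 24 h replicate 1 or NXP800 24 h replicate 2 (0.0419 and 0.0450). The 24 h call was lost without DMSO 24 h replicate 2 or 3 or NXP800 24 h replicate 1 (0.107, 0.0502 and 0.0862) and with library size only (0.110) or only the 6 libraries of that time (0.0601), and the difference was not called with library size only (0.0501).

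The 4 ribosome-associated members had log2 fold changes of at most 0.37 in size. ABCF1, which binds initiation factor eIF2, was at 247, 226 and 238 CPM in DMSO and 195, 183 and 188 CPM with NXP800 at 6 h, and at 24 h at 259, 234 and 256 CPM in DMSO and 207, 182 and 190.2 CPM with NXP800. ABCF3, related to the yeast partner of GCN1 in activating the kinase GCN2, was at 55.3, 57.9 and 59.00 CPM in DMSO and 46.1, 46.1 and 49.8 CPM with NXP800 at 6 h, and at 24 h at 72.8, 72.9 and 75.2 CPM in DMSO and 67.9, 62.2 and 60.98 CPM with NXP800. For both genes the NXP800 libraries were below the DMSO libraries at each time. ABCF1 fell by 0.33 log2 units and 0.37 (adjusted p = 0.000543 and 0.000145), and ABCF3 by 0.28 and 0.21 (adjusted p = 0.00132 and 0.00856 by edgeR). The 24 h call of ABCF3 was lost without NXP800 24 h replicate 2 (0.0550), with library size only (0.0985) and without a low-count filter (0.0543).

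ABCE1, which splits ribosomes for recycling, was at 326, 312 and 308 CPM in DMSO and 317, 332 and 325 CPM with NXP800 at 6 h, and at 24 h at 238, 209 and 197 CPM in DMSO and 260.1, 239.8 and 209 CPM with NXP800. ABCF2 was at 27.6, 25.1 and 24.5 CPM in DMSO and 29.97, 26.8 and 28.7 CPM with NXP800 at 6 h, and at 24 h at 29.6, 28.4 and 25.4 CPM in DMSO and 33.7, 27.8 and 29.4 CPM with NXP800. The groups of both genes overlapped at each time. ABCE1 had a log2 fold change of 0.04 (95% interval -0.13 to 0.21) and 0.14 (-0.03 to 0.31), and ABCF2 of 0.15 (-0.04 to 0.33) and 0.12 (-0.06 to 0.31). With the replicate block ABCE1 was called higher at 24 h (edgeR adjusted p = 0.0183), as it was without DMSO 24 h replicate 1 or NXP800 24 h replicate 3 (0.0368 and 0.0260) and with library size only (0.0221). In GENCODE 37.1% of the exon bases of ABCF2 also belong to the readthrough ABCF2-H2BK1. That readthrough has its own entry in the counts, with 0 or 1 counts in each library. What this does to the level of ABCF2 was not tested.

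Of 15 listed genes of ribosome recycling and of the GCN1 complex, all tested, 6 were called higher and 1 lower at 6 h, and 7 higher and 2 lower at 24 h. For all tested genes the shares were 25.0% higher and 27.8% lower at 6 h, and 27.5% and 28.6% at 24 h. GSPT2, a release factor, rose by 0.87 log2 units and 0.71 (adjusted p = 9.49e-07 and 8.53e-06). EIF2AK4, which encodes GCN2, fell by 0.62 log2 units and 0.48 (adjusted p = 4.31e-07 and 5.21e-06 by edgeR). GCN1 had a log2 fold change of -0.19 and -0.17 (adjusted p = 0.0537 and 0.0765), and with the replicate block it was called lower at both times (0.00329 and 0.00506). It was also called at 6 h without DMSO 6 h replicate 2, NXP800 6 h replicate 3 or NXP800 24 h replicate 1 (0.00754, 0.0473 and 0.0419), and at 24 h without DMSO 6 h replicate 2 (0.0415).

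The difference between the responses at 24 h and 6 h was called for 11 of the 32 tested members, 5 with a more positive response at 24 h and 6 with a more negative one, while 25.8% of all tested genes were called (1924 and 2205 of 15979). The members' median difference was -0.01 log2 units. ABCA3, ABCG1, ABCC5, ABCC3 and ABCC4 were more positive, and ABCA13, ABCB6, ABCC12, ABCD4 and ABCG2 were among the more negative. The calls of ABCA3, ABCG1 and ABCC5 held in every alternative that was run. With library size only 5 members were more positive and 3 more negative, and 3 were more negative without DMSO 24 h replicate 2, NXP800 24 h replicate 1 or NXP800 6 h replicate 1. Under the replicate block the counts were 5 and 9.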

How the data were processed

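The values are raw counts per gene symbol of 12 libraries, which the authors made by trimming with fastp 0.20.1, alignment with STAR 2.7.5a to hg38 (GRCh38.p14) and counting on RefSeq genes with HTSeq 0.12.4, per the labels, and deposited without normalization. Reads were paired ends of 100 bases from a strand-specific mRNA kit, and the dose comes from the study's methods. The strand setting and the rule for shared reads are not given in the sources used here. The 5 entries that name no gene stayed out of library sizes and tests, and their shares are no feature 2.73 to 8.14%, not unique 1.86 to 3.37% and ambiguous 2.10 to 2.43%.

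The counts entered edgeR 4.0.16 (limma 3.58.1, R 4.3.3). filterByExpr with a minimum count of 10 kept 15979 symbols, scaling was by TMM, and the quasi-likelihood test was run in 1 model of the 4 groups with adjusted p below 0.05 as the call. NXP800 was contrasted with DMSO at each time, and the 24 h response with the 6 h one. At 30810614 to 31947656 counts a library, replicate spread limits the precision except for low genes, and counting intervals cover counting error only. With group means taken off, treated and control libraries sharing a replicate number correlated across genes with r from 0.159 to 0.329 in 6 pairs. Those of different numbers had r from -0.268 to 0.0580. Taking off the mean of 3 libraries ties these ranges together, since a positive r for same numbers pushes the others down. The numbers come from the sample titles, which state no pairing, and were taken to pair the libraries. The main model leaves this pairing out, so its SEs, intervals and calls are unpaired, and the replicate block is the alternative that uses it. Genes are not independent replicates. No pair of replicates agreed within sampling noise (chi-square per degree of freedom 7.36 to 26.3).

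The members, functional groups and partner lists were chosen with earlier results of these data known. Values by library are given for up to 4 called members a group whose log2 CPM averaged 0 or more, by the largest absolute fold change, and for the 4 ribosome-associated members, and up to 3 called genes are named per partner list, along with GCN1. LPCAT3, NR1H2, RXRB, MYLIP, APOE, TAP1 and TAP2 were added. The values of 2 members are not reported here, while counts and medians over the family include them. Exon lengths, overlaps and strands of genes are from GENCODE 44, and gene positions and promoter windows from RefSeq. The fit was tested on simulated data for the 6 h contrast. It found 196 of 200 genes changed 2-fold and made 11 other calls among 15689 genes. In the measured data 4000 genes were called higher and 4435 lower at 6 h, far more than were changed in the simulation. The simulated rates therefore cannot be carried over to the measured calls, and smaller changes were not simulated.

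The fits were repeated under the size factors and under the Wald test of DESeq2 1.42.0, under library size only, without a low-count filter, with a minimum of 10 counts in each library, on 1 time's 6 libraries alone, with a replicate block, with each library dropped and at an adjusted p below 0.01.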

Additional observations from a re-analysis of the deposited data

Results flagged for a closer look

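The response to NXP800 differed between 24 h and 6 h, by edgeR's quasi-likelihood test of the difference itself, for ABC genes of several groups. The log2 response at 24 h minus that at 6 h was 2.13 for ABCA3 (adjusted p = 2.74e-06), 0.89 for ABCG1 (adjusted p = 0.00148), 0.77 for ABCC5 (adjusted p = 0.00465), 0.45 for ABCC3 (adjusted p = 0.0238) and 0.33 for ABCC4 (adjusted p = 0.0184). It was -1.99 for ABCA13 (adjusted p = 0.0110), -3.40 for ABCC12 (adjusted p = 0.0415), -0.75 for ABCG2 (adjusted p = 0.0126), -0.54 for ABCD4 (adjusted p = 0.0143) and -0.40 for ABCB6 (adjusted p = 0.0281). For ABCC12 the call was lost without DMSO 24 h replicate 2, DMSO 6 h replicate 1 or 3, any NXP800 24 h replicate or NXP800 6 h replicate 1 or 2 (adjusted p from 0.0626 to 0.159), and its difference rests on 45 and 2 counts at 24 h.

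Among the partner genes the difference was 0.75 for RXRA (adjusted p = 0.00321), 0.48 for CPOX (adjusted p = 0.00910), 0.44 for NFS1 (adjusted p = 0.0103) and 0.78 for TAP1 (adjusted p = 0.0170). In edgeR's same test it was -1.06 for AHR (adjusted p = 3.73e-05), -0.89 for CAT (adjusted p = 0.000739), -0.75 for SCP2 (adjusted p = 0.000547), -0.58 for GSTM1 (adjusted p = 0.00582), -0.41 for RXRB (adjusted p = 0.0104) and -0.34 for NFE2L2 (adjusted p = 0.0299). The call of NFE2L2 was lost with library size only (adjusted p = 0.0749) and without DMSO 24 h replicate 1, DMSO 6 h replicate 2 or 3, NXP800 24 h replicate 3 or NXP800 6 h replicate 1 or 2 (adjusted p from 0.0576 to 0.0882). The 24 h libraries differ from the 6 h libraries also in the share of reads on no annotated gene, and time and library set cannot be told apart.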

How the results depend on the processing

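No call of an ABC gene changed direction in any alternative. At 6 h 13 of 16 calls held in every one that tested the gene, at 24 h 18 of 23 and for the difference of the responses 3 of 11. The 18 include low-count genes that some alternatives left out. ABCA13 and ABCC6 had a 24 h value in 19 alternatives and ABCC12 in 18, where a gene such as ABCA1 had 20. Calls of members that were lost somewhere were ABCA4, ABCB4 and ABCC6 at 6 h, and ABCB8, ABCC4, ABCC5, ABCD4 and ABCF3 at 24 h. Of calls that were not made, 9 of 16 at 6 h and 5 of 9 at 24 h stayed so wherever the gene was tested. With library size only, 3 members had a more negative response at 24 h in place of 6. At an adjusted p below 0.01, 3 had a more positive response in place of 5, and 0 a more negative one, all 6 having edgeR adjusted p between 0.01 and 0.05, and at an unadjusted p below 0.05 there were 6. When each library was left out in turn, 4 to 6 members were higher and 9 to 12 lower at 6 h, 6 to 8 higher and 16 to 19 lower at 24 h, and the responses were more positive for 4 to 6 and more negative for 3 to 6.

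Under the replicate block 6 members were called higher and 16 lower at 6 h, 8 and 18 at 24 h, and 5 more positive and 9 more negative in the difference. It added calls at 6 h for ABCB8, ABCC1, ABCC2, ABCC3, ABCC4 and ABCD4, at 24 h for ABCC2, ABCC3 and ABCE1 and in the difference for ABCA1, ABCA2 and ABCC1, as given beside those genes, and changed no other call of a member. By DESeq2's Wald test ABCA4, ABCB4 and ABCC6 lost their 6 h calls (adjusted p = 0.114, 0.0533 and 0.0693) and ABCC3 gained one at 24 h (0.0494). ABCC2 gained a call without NXP800 6 h replicate 3 at both times (edgeR adjusted p = 0.0329 and 0.0429) and at 24 h without DMSO 24 h replicate 3 or NXP800 24 h replicate 1 (0.0291 and 0.0292). ABCC3 gained one at 24 h in 9 of 20 alternatives, which include leaving out DMSO 24 h replicate 1 or 2 or NXP800 24 h replicate 1 (0.0473, 0.0334 and 0.0368), and at 6 h without DMSO 24 h replicate 3 (0.0404). ABCF2 gained one with only the 6 h libraries (0.0464) and at 24 h with library size only (0.0431). The causes were not tested. The fit on the 6 libraries of a time was not run for the difference. Depth limits ABCA13, ABCC6, ABCC12 and the 14 genes that were not tested.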

Other observations

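Of 3 ABC genes with other symbols CFTR was not tested, and TAP1 and TAP2, which carry peptides into the endoplasmic reticulum for antigen presentation, were. TAP1 was at 13.1, 12.3 and 12.2 CPM in DMSO and 8.11, 9.00 and 8.38 CPM with NXP800 at 6 h, and at 24 h at 13.3, 14.4 and 21.1 CPM in DMSO and 18.4, 15.6 and 23.04 CPM with NXP800. The NXP800 libraries of 6 h were below the DMSO libraries and the 24 h groups overlapped. TAP1 fell by 0.56 log2 units at 6 h (adjusted p = 0.00831 by edgeR) and was at 0.22 at 24 h (adjusted p = 0.225), where it was called higher with the replicate block (0.0175) or without DMSO 24 h replicate 3 (0.0103). TAP2 fell by 0.15 and 0.22 (adjusted p = 0.0351 and 0.00320). The 6 h call of TAP2 was lost without DMSO 6 h replicate 1, 2 or 3, NXP800 6 h replicate 1 or 2 or NXP800 24 h replicate 2 (adjusted p from 0.0614 to 0.156), and with library size only both of its calls were (0.0534 and 0.0520). In edgeR that 6 h call was also lost with DESeq2 size factors (0.0651), no low-count filter (0.155) and only the 6 libraries of that time (0.0747). By DESeq2's Wald test the 6 h change of TAP2 had adjusted p = 0.0727.

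Members that lie next to each other did not always share a direction. ABCC1 and ABCC6 lie 6.51 kb apart on opposite strands of chromosome 16 and both fell at 24 h. ABCB1 rose at both times while ABCB4, 27.0 kb away, was called lower at 6 h, and ABCA10 rose at both times while the overlapping ABCA5 was called at neither. The pseudogene ABCA11P was called at neither time, with 0.30 and 0.08 (edgeR adjusted p = 0.0536 and 0.644).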
